A study of Mus musculus with 6 samples.

Results

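The cyclin-dependent kinase inhibitors are a family of 7 genes in the mouse, Cdkn1a, Cdkn1b, Cdkn1c, Cdkn2a, Cdkn2b, Cdkn2c and Cdkn2d, measured here by RNA sequencing in endothelial cells sorted from mouse lungs. They were found by symbol among the 23793 rows of an expression table, and each of the 7 symbols stood in 1 row. The family was chosen by the measured FPKM of 1 member, since it was taken up with the lower Cdkn2b of the mutant already known, and that difference is a description of these libraries and not independent support. Each of 6 libraries was made from lung endothelial cells purified by fluorescence-activated sorting at postnatal day 7, with 3 from mutant and 3 from control lungs on a mixed strain background. The sample titles name Vegfa and Shh for both groups, and the series title places Vegfa in the epithelium. The labels spell out neither the alleles of the mutants nor those of the controls, nor the driver of any recombination, nor whether animals were pooled. Replicates carry the letters A, B and C in both groups, and values per library are given in the order A, B, C. The labels state no pairing, and same-lettered libraries were taken as pairs because their values deviated together. The study looked for differences in gene expression between the 2 groups.

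Progress from G1 into S phase is driven by cyclin-dependent kinases, which phosphorylate the retinoblastoma protein and so release E2F transcription factors. The inhibitors form 2 subfamilies. Cip and Kip proteins (Cdkn1a or p21, Cdkn1b or p27, Cdkn1c or p57) bind complexes of cyclin and kinase, chiefly those with Cdk2. Ink4 proteins (Cdkn2a or p16, Cdkn2b or p15, Cdkn2c or p18, Cdkn2d or p19) bind Cdk4 and Cdk6 and keep D-type cyclins from joining them. The lung capillary bed grows during the first postnatal weeks in the mouse, so its endothelium holds both dividing and resting cells.

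The promoter windows of the 3 Ink4 genes at measurable levels are shown because 1 of them, Cdkn2b, differed widely between the groups while Cdkn2c and Cdkn2d did not pass the test. The first window listed for each gene is given. It runs from 250 bases before to 50 bases after a transcript start, from RefSeq on GRCm38.p6, on the minus strand. For Cdkn2d that start lies inside the span RefSeq gives the gene, downstream of the span's outer end. Capitals mark GGGCGG or its reverse complement (the GC box) and TGACGTCA (the cAMP response element). Cdkn2b lies at chr4:89310983-89311282, Cdkn2c at chr4:109666707-109667006 and Cdkn2d at chr9:21291160-21291459.
Cdkn2b: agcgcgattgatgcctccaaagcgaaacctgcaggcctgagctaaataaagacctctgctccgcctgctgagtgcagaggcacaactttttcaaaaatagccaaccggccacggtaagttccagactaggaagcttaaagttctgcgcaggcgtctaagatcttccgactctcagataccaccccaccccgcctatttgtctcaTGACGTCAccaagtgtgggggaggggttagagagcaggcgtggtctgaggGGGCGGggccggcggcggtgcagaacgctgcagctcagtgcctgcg
Cdkn2c: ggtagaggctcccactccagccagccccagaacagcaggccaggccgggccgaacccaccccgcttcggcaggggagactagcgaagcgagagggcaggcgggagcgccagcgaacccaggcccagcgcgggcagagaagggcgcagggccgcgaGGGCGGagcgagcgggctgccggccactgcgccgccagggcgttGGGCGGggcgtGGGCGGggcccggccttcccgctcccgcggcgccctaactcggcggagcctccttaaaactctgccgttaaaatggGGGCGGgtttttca
Cdkn2d: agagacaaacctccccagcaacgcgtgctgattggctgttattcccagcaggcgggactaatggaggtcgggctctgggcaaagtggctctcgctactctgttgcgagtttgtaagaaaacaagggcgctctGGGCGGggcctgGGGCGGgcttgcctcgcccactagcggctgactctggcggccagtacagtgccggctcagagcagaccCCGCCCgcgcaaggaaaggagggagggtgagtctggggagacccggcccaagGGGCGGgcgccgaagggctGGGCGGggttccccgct
The Cdkn2b window held 1 GC box and 1 TGACGTCA, the Cdkn2c window 4 GC boxes and the Cdkn2d window 5, counted on both strands with no overlap between matches. Over the 32851 promoter windows of the RefSeq table, 35.7% held GGGCGG and 1.79% held TGACGTCA. The E box CACGTG (7.15% of windows) and the forkhead core GTAAACA (3.65%) had no match in these 3 windows. The other window listed for Cdkn2c, not shown, held 0 GC boxes and 1 E box. The motifs were chosen after the sequences had been read, and a match of letters is not a bound site.

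Some libraries stood apart. Relative depth, read from the spacing of the lowest values, ran from 0.892 to 1.48 with control A as 1, and the number of fragments behind each value is not known. Short RNAs made up 20.6% of the FPKM sum of control A and 1.12% to 4.39% elsewhere. Xist, which female cells transcribe, was under 0.1 FPKM in both libraries of pair C and at 33.3 to 57.9 FPKM in pairs A and B. Endothelial markers were present in every library, with Pecam1 between 728 and 928 FPKM and Cdh5 between 1050 and 1310 FPKM. The summed level of 10 pan-endothelial markers was 5324 to 5838 FPKM in mutant and 6493 to 7346 FPKM in control libraries, and 0 of the 10 were called. Cldn5, a tight junction protein, carried that gap, at 1159, 1250 and 798 FPKM in the mutants, against 2430, 2042 and 2099 FPKM in the controls. It was the single one of the 10 lower at an unadjusted p under 0.05 (adjusted p = 0.288 in limma). Without Cldn5 the sums overlapped, at 4678, 4074 and 4903 FPKM in the mutants, against 4916, 4534 and 4394 FPKM in the controls; leaving it out was decided after its values were seen.

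The unit of a level is FPKM, which divides fragments by transcript length and by sequencing depth, so levels of different genes can be set side by side. By FPKM the family ranked in the same order in mutant and in control libraries: Cdkn1a, Cdkn1b, Cdkn1c, Cdkn2c, Cdkn2d, Cdkn2b and Cdkn2a. Over all 6 libraries Cdkn1a averaged 45.4 FPKM, at or above 84.6% of the 11693 rows whose mean reached 1 FPKM. Cdkn1b averaged 38.2 FPKM, Cdkn1c 21.5 FPKM, Cdkn2c 20.3 FPKM and Cdkn2d 15.4 FPKM. Ranges over the 6 libraries overlapped between Cdkn1a and Cdkn1b, between Cdkn1c and Cdkn2c, and between Cdkn2c and Cdkn2d, so those neighbours in the order were not separated. Cdkn2b averaged 5.48 FPKM and had the widest range of the 6 members above 0 in every library, its highest library at 27.4 times its lowest. Cdkn2a reached at most 0.377 FPKM in any library and was the only member under the filter of a mean of 1 FPKM, so 6 of 7 members were tested. Cdkn2b passed that filter through the control libraries, since its mutant mean was under 1 FPKM.

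**Figure D1:**
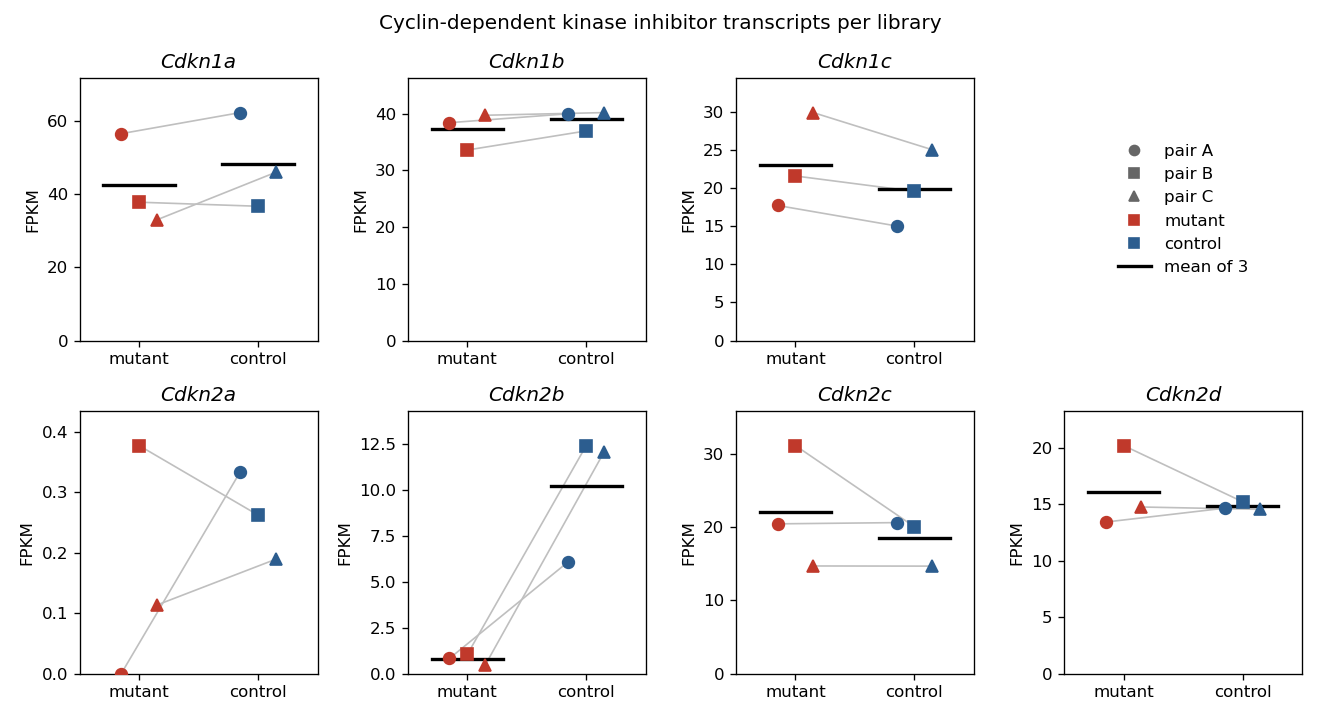
FPKM of each of the 7 inhibitors (y axis, from 0, scaled per gene) in the mutant and control libraries; marker shapes are pairs A, B and C, grey lines join a pair, and black bars are means of 3 libraries, omitted for Cdkn2a. For Cdkn2b the 3 mutant libraries lie at or under 1.04 FPKM and the controls at or above 6.09 FPKM, while the groups overlap for the other 6 genes.

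Cdkn2b, which encodes the p15 inhibitor of Cdk4 and Cdk6, was low in every mutant library. It stood at 0.822, 1.04 and 0.453 FPKM in the mutants, against 6.09, 12.4 and 12.1 FPKM in the controls. The groups did not overlap, as in 6.57% of all rows with the mutants lower, and control A was lower than the other controls while still well above every mutant. The mean was 0.771 ± 0.296 FPKM in mutant and 10.2 ± 3.55 FPKM in control libraries (SD, n = 3 each), the control mean being 13.2 times the mutant mean. On the log2(FPKM + 1) scale, which understates changes at low levels, Cdkn2b fell by 2.62 ± 0.28 (SE; limma, p adjusted over all 11693 rows tested = 0.0370). In bulk samples fewer cells of a type and less RNA per cell cannot be told apart. At that threshold 0.137% of rows were called lower and 0% higher in the mutant, and Cdkn2b ranked at place 11 by p. The log2 differences were -1.96 within pair A, -2.72 within pair B and -3.17 within pair C. For Cdkn2b the authors' deposited table holds a log2 fold change of -3.73 and an unadjusted p of 0.0202, where 7.53% of its 14338 rows with a p-value were under 0.05.

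The direction held in every fit, where the gap between the groups left it little room to change. The call held under 9 of 18 alternatives and ended under the other 9. With the pair as a block the adjusted p of Cdkn2b was 0.0898, and that fit called 0.0513% of rows lower. When 1 mutant library was left out, the adjusted p was 0.136 for A, 0.0966 for B and 0.113 for C. When 1 control library was left out, it was 0.0129 for A, 0.198 for B and 0.208 for C. In pairs B and C alone, whose description labels share a prefix that pair A lacks, the log2 difference was -2.94 (adjusted p = 0.0892). With that prefix as a batch term over all libraries, the adjusted p was 0.0440 in limma. Pair A has 1 library a group and allows no test.

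Cdkn2b (chromosome 4, 89306289 to 89311032, minus strand, 4744 bp, NCBI gene 12579) overlaps no other gene in the GENCODE M21 annotation. Its neighbour Cdkn2a, 11.7 kb away, encodes p16 and, from another first exon and reading frame, the p53 regulator Arf. Cdkn2a was listed at 0, 0.377 and 0.113 FPKM in the mutants, against 0.333, 0.262 and 0.189 FPKM in the controls. These levels overlap and lie near the bottom of the table, so no difference was detectable at this depth, and the row does not separate p16 from Arf. In mutant A, where Cdkn2a was listed at 0, genes that every cell uses were not: Actb stood at 1897 FPKM.

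Reads could be told apart within the family. The longest identical run between any transcript of Cdkn2a and any of Cdkn2b was 23 nt, shown in capitals because it is the limit of what a read could share:
Cdkn2a and Cdkn2b: CGGGAAGGCTTCCTGGACACGCT
No run of 76 nt, the read length, was shared between any 2 of the 7 genes, and the longest after this one was also 23 nt, between Cdkn1a and Cdkn1b. Other genes near the locus did not pass the test. Mtap, a methionine salvage enzyme 125 kb away, stood at 9.96, 7.88 and 7.67 FPKM in the mutants, against 7.36, 6.92 and 9.38 FPKM in the controls. Its groups overlapped, with a log2 difference of 0.10 ± 0.15 and an adjusted p of 0.902 in limma. Klhl9, 584 kb away, had a log2 difference of -0.11 (adjusted p = 0.845 in limma), and Dmrta1 was listed at 0 in all 6 libraries.

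Cdkn2c (chromosome 4, 109660876 to 109666756, minus strand) and Cdkn2d (chromosome 9, 21288459 to 21291421, minus strand), the Ink4 genes of higher level here, did not pass the test. Cdkn2c stood at 20.5, 31.2 and 14.7 FPKM in the mutants, against 20.7, 20.1 and 14.7 FPKM in the controls. Its values were nearly equal within pairs A and C, and mutant B stood above all other libraries. The log2 difference was 0.20 ± 0.27, with a 95% interval of -0.43 to 0.84 and an adjusted p of 0.885 in limma. Cdkn2d stood at 13.4, 20.2 and 14.7 FPKM in the mutants, against 14.6, 15.2 and 14.5 FPKM in the controls. Again mutant B was highest, while the other 5 libraries lay between 13.4 and 15.2 FPKM. Its log2 difference was 0.10 ± 0.15, with an interval of -0.27 to 0.46 and an adjusted p of 0.905 in limma. Without mutant B the differences were -0.069 for Cdkn2c and -0.068 for Cdkn2d. Mutant B also had the highest summed FPKM of 18 S phase genes (657, against 498 and 622 in the other mutants and 328 to 480 in controls). The sum of 20 genes of G2 and M phase was 595 FPKM there, 344 and 370 FPKM in the other mutants and 231 to 326 FPKM in controls. The part of these cell cycle levels in Cdkn2c and Cdkn2d was not tested.

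Cdkn2b made up a small part of Ink4 transcripts in the mutant. Its share of the summed FPKM of the 4 Ink4 genes was 2.37%, 1.97% and 1.51% in the mutants, against 14.6%, 25.9% and 29.1% in the controls. Cdkn2c held 49.0% to 59.1% in mutant and 35.4% to 49.5% in control libraries. The Ink4 sum itself was 34.7, 52.8 and 30.0 FPKM in the mutants, against 41.7, 48.0 and 41.5 FPKM in the controls. It was therefore lower in the mutant in pairs A and C and higher in pair B, where Cdkn2c and Cdkn2d were at their highest. These shares follow from the FPKM values above and carry no test.

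**Figure D2:**
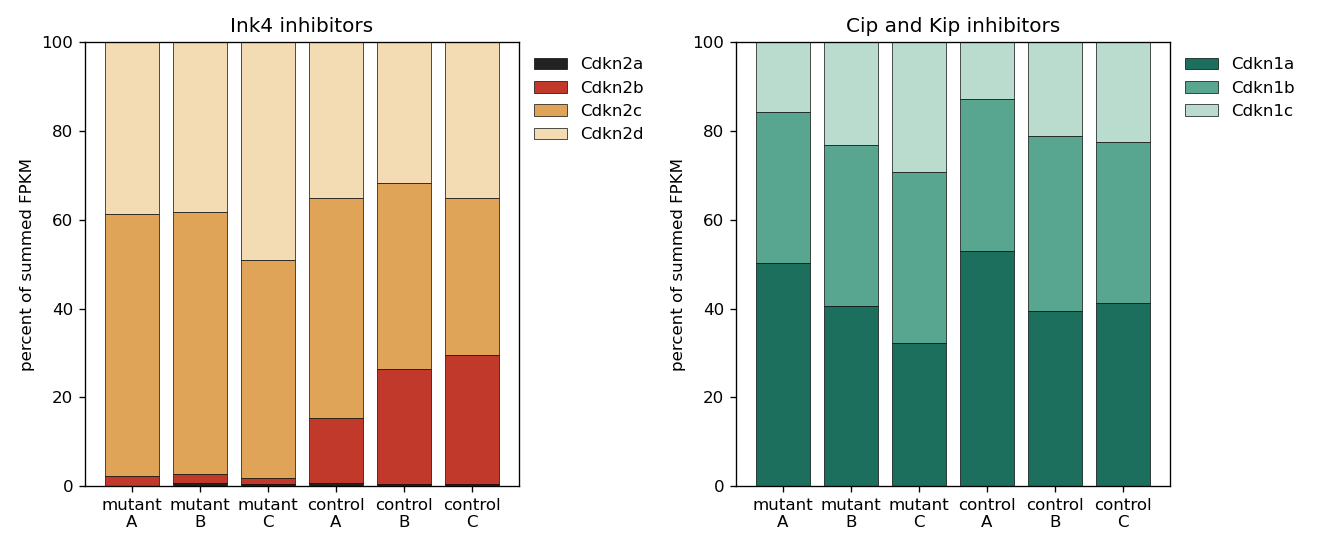
Percent of the summed FPKM (y axis, 0 to 100) of the 4 Ink4 genes, left, and of the 3 Cip and Kip genes, right, in each library (x axis, mutants then controls). The Cdkn2b band is at most 2.37% in the mutants and at least 14.6% in the controls; the Cip and Kip bands overlap between the groups.

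The 3 Cip and Kip genes did not pass the test. Cdkn1a lies on chromosome 17 (29090979 to 29100722, plus strand), Cdkn1b on chromosome 6 (134920401 to 134925525, plus strand) and Cdkn1c on chromosome 7 (143458339 to 143461059, minus strand). Cdkn1a, the p21 inhibitor that p53 induces, stood at 56.6, 37.8 and 33.0 FPKM in the mutants, against 62.3, 36.7 and 46.0 FPKM in the controls. Pair A was highest in both groups, and the groups overlapped. Its log2 difference was -0.19 ± 0.25, with a 95% interval of -0.79 to 0.41 and an adjusted p of 0.885 in limma, and without control A it was 0.0087. GENCODE places the transcript AC167363.2 on the opposite strand, overlapping the span of Cdkn1a. The library kit named in the labels does not mark strand, so reads of the 2 cannot be told apart where they overlap.

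Cdkn1b, the p27 inhibitor that accumulates in resting cells, was the steadiest member. It stood at 38.4, 33.6 and 39.7 FPKM in the mutants, against 40.0, 37.0 and 40.2 FPKM in the controls, its highest library at 1.20 times its lowest. It was slightly lower in the mutant in 3 of 3 pairs, as were 17.2% of the rows tested. The log2 difference was -0.07 ± 0.10, the interval -0.30 to 0.17 and the adjusted p 0.892 in limma, and without mutant B the difference was 0.0015.

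Cdkn1c, the imprinted p57 inhibitor expressed from the maternal allele, stood at 17.7, 21.6 and 29.9 FPKM in the mutants, against 15.05, 19.6 and 25.1 FPKM in the controls. The groups overlapped, since pair C was high and pair A low in both. Within each pair the mutant was a little higher, by 0.22, 0.13 and 0.25 on the log2 scale in pairs A, B and C, and 19.6% of the rows tested were higher in all 3 pairs. The difference was 0.20 ± 0.24, with an interval of -0.36 to 0.76 and an adjusted p of 0.869 in limma. Without mutant C the difference was 0.0061, and without control A it was 0.025. With the pair as a block its unadjusted p was 0.0560 and its adjusted p 0.414, where 5.39% of rows were higher at an unadjusted p under 0.05. In the authors' deposited table Cdkn1c has a log2 fold change of 0.21 and an unadjusted p of 0.0271. The antisense transcript Gm44732 overlaps the span of Cdkn1c, so the Cdkn1c row may likewise hold reads of both.

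**Figure D3:**
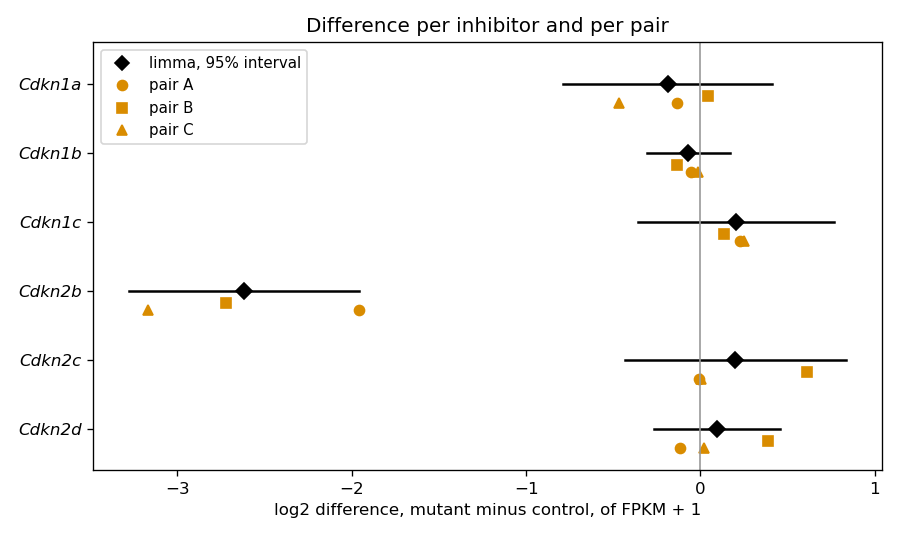
Log2 difference of FPKM + 1, mutant minus control (x axis), for the 6 inhibitors tested; black diamonds with lines are the limma estimate and its 95% interval, and orange symbols are the differences within pairs A, B and C. Cdkn2b lies between -3.17 and -1.96 in the 3 pairs, and the intervals of the other 5 genes include 0.

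Genes of the imprinted region around Cdkn1c on chromosome 7 were set beside it. Of 10 listed, 6 were tested and 0 were called. H19, a maternally expressed noncoding RNA 880 kb from Cdkn1c, stood at 99.3, 201 and 137 FPKM in the mutants, against 36.8, 37.8 and 57.6 FPKM in the controls. Its groups did not overlap, as in 7.12% of the rows tested with the mutants higher, and its log2 difference of 1.67 ± 0.28 had an adjusted p of 0.211 in limma. The paternally expressed growth factor Igf2 had a log2 difference of 0.73 ± 0.18 (adjusted p = 0.411 in limma). Slc22a18, a transporter 12.7 kb from Cdkn1c, had a difference of -0.28 (adjusted p = 0.842 in limma), and Phlda2 was listed at 0 in 5 of 6 libraries.

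The partners and targets of the inhibitors gave 0 called genes outside the family, at adjusted p-values over all rows. At an unadjusted p under 0.05, limma gave 8.1% of all rows, 4.29% lower and 3.81% higher in the mutant, and the median log2 difference over all rows was 0.02. Among 8 cyclins, 2 were lower and 2 higher at that unadjusted threshold, with a median of 0.41. Ccnd3, a D-type cyclin that activates Cdk4 and Cdk6, stood at 42.1, 59.8 and 40.2 FPKM in the mutants, against 87.1, 74.7 and 79.5 FPKM in the controls. The groups did not overlap, and the log2 difference was -0.77 ± 0.16 (adjusted p = 0.298 in limma). Ccnd2 had a difference of -0.61 (adjusted p = 0.568 in limma), and Ccne1, the cyclin of Cdk2, one of 0.61 (adjusted p = 0.545 in limma). Ccnd1 stood at 110, 116 and 223 FPKM in the mutants, against 140, 88.7 and 126 FPKM in the controls. Its groups overlapped (log2 difference 0.29 ± 0.30, adjusted p = 0.850 in limma), and its row also holds Mir3962.

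The kinases that Ink4 proteins bind were at very different levels. Cdk4 stood at 129, 150 and 178 FPKM in the mutants, against 124, 123 and 139 FPKM in the controls, with a log2 difference of 0.23 ± 0.14 (adjusted p = 0.729 in limma). Cdk6 stood at 4.14, 6.35 and 3.79 FPKM in the mutants, against 3.07, 6.93 and 6.08 FPKM in the controls (-0.11 ± 0.29, adjusted p = 0.945 in limma). Both pairs of groups overlapped. Of the 7 kinases and kinase-activating subunits, 2 were higher at the unadjusted threshold, Cdk1 with a difference of 0.58 and Mnat1 with one of 0.26 (adjusted p of 0.593 and 0.613 in limma).

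Downstream of the kinases, 3 of 13 pocket proteins and E2F factors were higher at the unadjusted threshold and 0 lower, with a median of 0.24. Rbl1, a pocket protein, had a log2 difference of 0.39, and the transcription factors E2f8 and E2f1 had 0.60 and 0.67 (adjusted p between 0.576 and 0.593 in limma). Rb1, the retinoblastoma gene, had a difference of -0.11 (adjusted p = 0.883). Of the 18 S phase genes, 15 were higher at the unadjusted threshold, with a median of 0.61 that was uneven between pairs, at 0.17, 1.10 and 0.68 in pairs A, B and C. Cdt1, which licenses origins, had a difference of 0.86, and the helicase subunits Mcm7 and Mcm6 had 0.64 and 0.59. Of the 20 genes of G2 and M phase, 10 were higher, with a median of 0.56 and 0.06, 1.28 and 0.25 in pairs A, B and C; Birc5, a subunit of the chromosomal passenger complex, had a difference of 0.65.

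**Figure D4:**
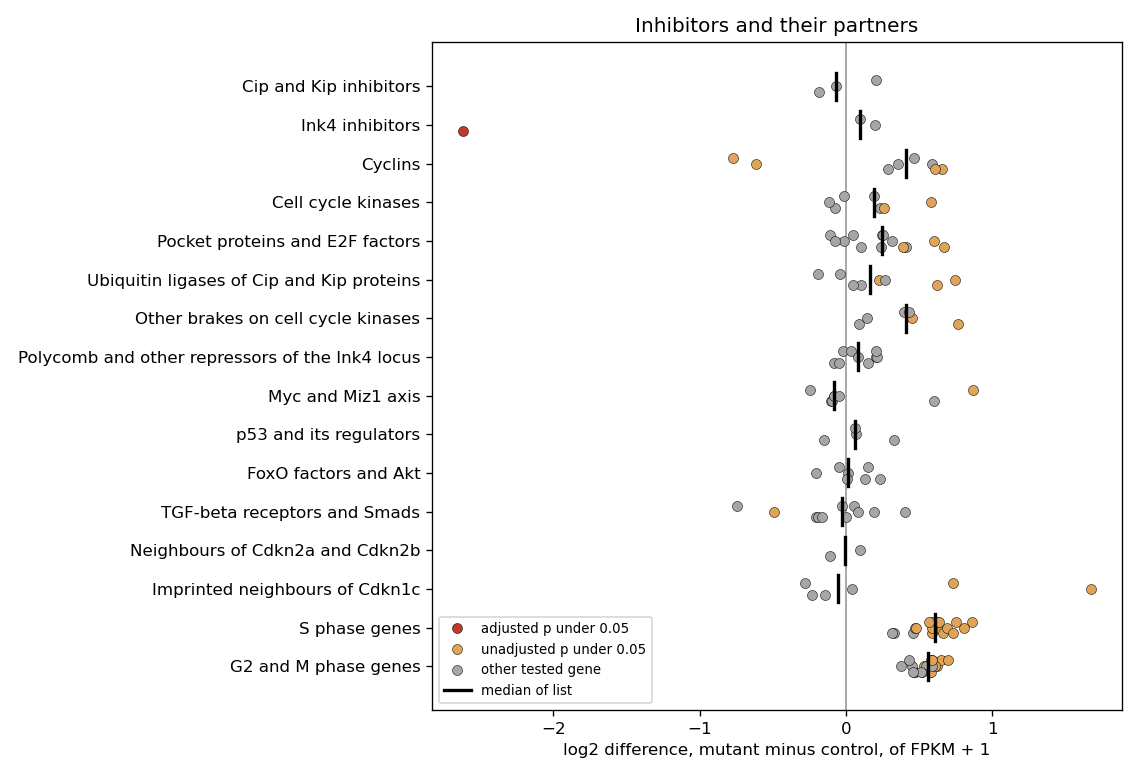
Log2 difference of FPKM + 1, mutant minus control (x axis), of each tested gene in the inhibitor subfamilies and in 14 lists of partners, regulators and cell cycle genes (y axis); black bars are list medians and colours give the p threshold passed. Cdkn2b is the single gene past the adjusted threshold, and S phase genes have a median of 0.61.

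Genes that act on the inhibitors themselves were then examined. Of 8 tested genes of the ubiquitin ligases that mark Cip and Kip proteins for destruction, 3 were higher at the unadjusted threshold and 0 lower. These were Dtl, a substrate receptor for p21 (log2 difference 0.74), Cks1b, a cofactor in the recognition of p27 (0.62), and the scaffold Cul1 (0.22), with adjusted p between 0.489 and 0.593 in limma. Of 6 other regulators of kinase activity, the phosphatase Cdkn3 (0.77) and the inhibitory kinase Pkmyt1 (0.45) were higher at the unadjusted threshold. Among 9 Polycomb and related repressors of the Ink4 locus, 0 passed it in either direction. Ezh2, the methyltransferase of that group, stood at 14.5, 20.1 and 16.6 FPKM in the mutants, against 16.0, 14.6 and 13.1 FPKM in the controls (0.21 ± 0.14, adjusted p = 0.760 in limma).

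Regulators of Cdkn2b, Cdkn1a and Cdkn1b transcription followed. Myc, which represses Cdkn2b and Cdkn1a through the factor Miz1, stood at 8.03, 15.1 and 24.9 FPKM in the mutants, against 6.30, 7.75 and 8.64 FPKM in the controls. The groups overlapped by mutant A, and the log2 difference was 0.87 ± 0.36 (adjusted p = 0.617 in limma). It was the single one of 8 genes of the Myc and Miz1 axis past the unadjusted threshold; Zbtb17, which encodes Miz1, had a difference of -0.05. TGF-beta signalling induces Cdkn2b in epithelial cells, and of 11 receptors, ligands and Smads, 1 was lower at the unadjusted threshold. This was the receptor Tgfbr2, at 82.3, 95.03 and 65.1 FPKM in the mutants, against 108, 123 and 108 FPKM in the controls (-0.49 ± 0.15, adjusted p = 0.526 in limma). Trp53, the gene of p53, had a difference of 0.33 (adjusted p = 0.675 in limma). In the list of p53 and its regulators (4 tested) and in that of FoxO factors and Akt (7 tested), 0 passed the unadjusted threshold. By fitted level, 6 of the 8 Myc and Miz1 genes were lower in the mutant and 2 higher. Of the 11 TGF-beta genes, 6 were lower and 5 higher. The part of these regulators in the levels of the inhibitors was not tested.

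Markers of other cells were set beside Cdkn2b. Of 10 markers of Car4-high capillary endothelium, listed with results known, 9 had a lower fitted level in the mutant. In limma 8 were lower at an unadjusted p under 0.05 and 2, Chst1 and Emp2, were called. Over all rows tested, 5308 of 11693 had a lower fitted level and 502 were lower at that unadjusted threshold. Car4 stood at 14.1, 20.0 and 1.43 FPKM in the mutants, against 226, 201 and 170 FPKM in the controls. Within the controls, Car4, Emp2, Ednrb, Kitl, Apln and Prx were highest in control A, where Cdkn2b was lowest. Chst1, Tbx2, Fibin and Igfbp7 were lowest in control A. Apln, among the 9 lower by fit, stood at 25.3, 41.0 and 243 FPKM in the mutants, against 169, 82.5 and 119 FPKM in the controls. The summed FPKM of the 10 ran from 749 to 1769 in mutant and from 1743 to 1817 in control libraries. Igfbp7, at 425, 619 and 1393 FPKM in the mutants, was most of the sum in each of them. The part of these cells in the level of Cdkn2b was not tested. Of 8 general capillary, 8 arterial, 6 tested venous and 6 lymphatic markers, 0 were called; at the unadjusted threshold 1 general capillary marker was lower and 1 venous marker higher.

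Mesenchymal markers, which mark fibroblasts and mural cells, varied between pairs. Of 10 tested, 8 had a lower fitted level in the mutant, 1 was lower at an unadjusted p under 0.05 and 0 were called. Their sum over 11 genes was 311, 1278 and 575 FPKM in the mutants, against 429, 1376 and 1309 FPKM in the controls. Mutant B had nearly as high a sum as controls B and C, and its Cdkn2b level was 1.04 FPKM. That sum is mostly collagen (Col1a1, Col1a2 and Col3a1), and the listed receptors Pdgfrb and Pdgfra stood lower in mutant B than in control B. Pdgfrb, a receptor of mural cells and the 1 marker past the unadjusted threshold (adjusted p = 0.586 in limma), stood at 5.88, 15.6 and 8.34 FPKM in the mutants, against 12.5, 26.7 and 33.2 FPKM in the controls. Pdgfra, a fibroblast receptor, stood at 5.31, 16.4 and 6.40 FPKM in the mutants, against 9.41, 23.4 and 26.3 FPKM in the controls. Control A had a low mesenchymal sum and the lowest Cdkn2b of the controls. Epithelial markers summed to 42.6 to 137 FPKM in mutant and 121 to 275 FPKM in control libraries, with Epcam and Cdh1 under 1 FPKM in all 6; 5 of 8 tested had a lower fitted level in the mutant, 2 (Hopx and Sftpc) were lower at an unadjusted p under 0.05 and 0 were called. Hopx, a marker of type 1 alveolar cells, stood at 17.0, 21.6 and 5.87 FPKM in the mutants, against 59.6, 60.8 and 57.9 FPKM in the controls (adjusted p = 0.262 in limma). Ager, on the same list, overlapped between the groups. It stood at 13.7, 9.48 and 11.3 FPKM in the mutants, against 12.9, 15.4 and 9.26 FPKM in the controls. Its log2 difference was -0.10 (adjusted p = 0.925 in limma). Erythroid and platelet markers summed to 34.4 to 92.4 FPKM in mutant and 89.8 to 309 FPKM in control libraries, where 7 of 7 tested had a lower fitted level in the mutant, 5 were lower at an unadjusted p under 0.05 and 0 were called. The leukocyte sums were 5.46 to 36.2 FPKM in mutant and 8.88 to 39.9 FPKM in control libraries, and the mesothelial sums 11.4 to 39.5 and 14.9 to 49.97 FPKM, also for mutant and control. Of the leukocyte and mesothelial markers, 3 each were tested, and 0 passed the unadjusted threshold. The part of the mesenchymal, epithelial and blood cell levels in Cdkn2b was not tested.

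**Figure D5:**
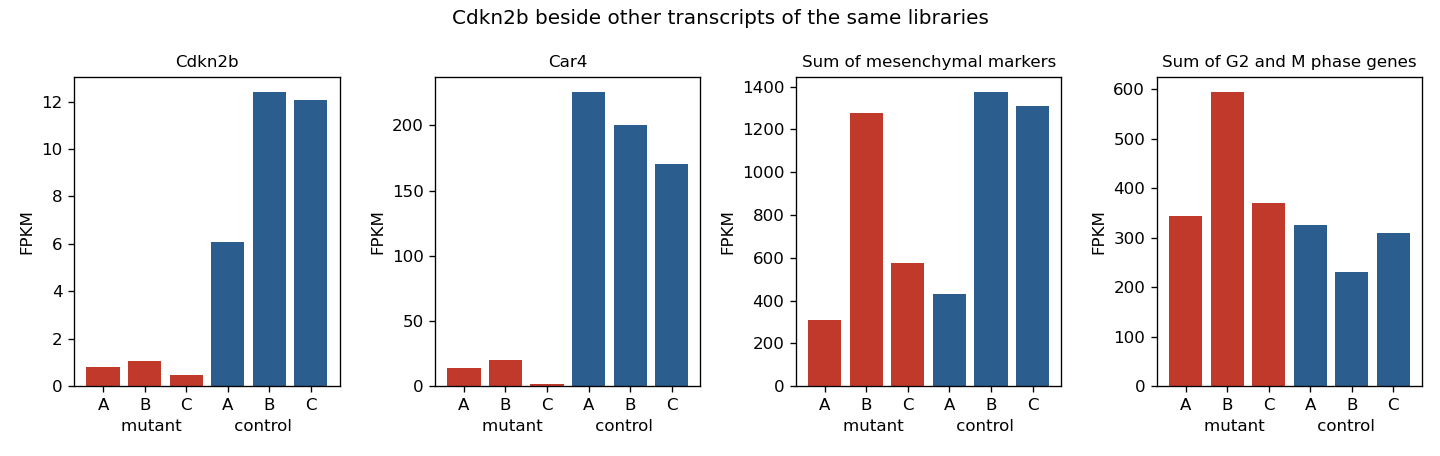
FPKM per library (y axes, from 0; red mutants A, B and C, then blue controls A, B and C) of Cdkn2b, Car4, the sum of 11 mesenchymal markers and the sum of 20 genes of G2 and M phase. Cdkn2b and Car4 are low in all 3 mutants. The mesenchymal sum of mutant B (1278 FPKM), mostly collagen, is close to that of controls B and C. Pdgfrb and Pdgfra of that list are lower in mutant B than in control B.

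The rows most like Cdkn2b were sought by Pearson r of log2(FPKM + 1) over the 6 libraries, among the 8838 other rows whose mean reached 5 FPKM. They were Snora17 (r = 0.992), a small nucleolar RNA listed at 0 in all 3 mutants, Rarg (0.991), a retinoic acid receptor, Paqr7 (0.989), a membrane progestin receptor, Trp53inp2 (0.989), which acts in autophagy, and Grb14 (0.989), a signalling adaptor. Grb14 stood between 2.53 and 4.30 FPKM in mutant and between 9.87 and 17.0 FPKM in control libraries, Rarg between 28.6 and 34.0 FPKM in mutant and between 45.1 and 57.0 FPKM in control libraries. With 6 libraries in 2 groups, r mostly follows the gap between the groups, so these values are a description with no test.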

How the data were processed

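Per the labels' protocols, 100 to 200 ng of total RNA went into each mRNA library, read in pairs of 76 nt and mapped to mm10. The submitters' processing notes list Bowtie2 2.2.3 and TopHat2 2.0.14, and Cuffdiff beside Cufflinks 2.2.1; for the annotation and filters, nothing is given in the sources used here. The authors deposited 1 FPKM column per library, with a log2 fold change and an unadjusted p-value per row. In those 2 columns 9455 rows hold spreadsheet errors, among them Cdkn2a, listed at 0 in mutant A. A log2 ratio without a pseudocount is undefined at 0, and whether this holds for the other rows was not tested. FPKM holds no counts, so depth is relative only. A low or short transcript rests on few fragments.

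Levels were compared on log2(FPKM + 1), a pseudocount of 1, with limma 3.58.1 in R 4.3.3, moderated variances that follow a trend with level, and p-values adjusted by Benjamini-Hochberg over the 11693 rows whose mean reached 1 FPKM; the threshold was an adjusted p of 0.05. No label ties a replicate to a single animal. Xist stood at 0.071 FPKM in mutant C and 0.092 FPKM in control C, and at 33.3 to 57.9 FPKM elsewhere. In each group, replicate C therefore came from other animals than A and B. The spread between samples that the p-values measure may still be technical in part.

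The members and the 27 gene lists (inhibitors, partners, regulators, cell cycle genes and cell type markers) were chosen with earlier results of these data known. Named genes were all 7 members, up to 3 per list with an unadjusted p under 0.05, 8 preset genes, and the 5 rows most like the called member and the member of highest level. Genes outside this rule (Cdkn2b neighbours, Slc22a18, Phlda2, Zbtb17 and single markers) were chosen after their values were seen.

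Same-lettered libraries deviated together from their group means (correlations across genes of 0.36, 0.27 and 0.19 for A, B and C), so the letters in the titles were taken as pairs. The main fit had no block, so its p-values do not use the pairing. Positions and promoters come from RefSeq on GRCm38.p6, the build of mm10; 6 of 7 members matched a promoter window. Alternatives were other pseudocounts, filters, scalings, variance models, the block, a batch term, the leaving out of each library, and pairs B and C alone, the last chosen after seeing the data.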

Additional observations from a re-analysis of the deposited data

How the results depend on the processing

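Cdkn2b was lower in the mutant under all 18 alternatives run, with log2 differences from -3.55 (pseudocount 0.1) to -2.46. Its groups do not overlap and it was chosen for this difference, so the direction is no independent support. The call of Cdkn2b held under 9 of the alternatives, with adjusted p in limma from 0.0129 (without control A) to 0.0440 (batch term). It ended under the other 9. The difference was -2.62 with no filter (adjusted p = 0.0680, with 17819 rows tested), with a filter of 5 FPKM (0.0583) and with the replicate block (0.0898), and -2.94 in pairs B and C only (0.0892). Leaving out 1 library gave -2.92 to -2.46, with adjusted p from 0.0129 to 0.208 in limma.

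The number of rows called, 16 with all libraries, was 10 with a filter of 5 FPKM, 6 with the replicate block, 6 in pairs B and C only, and 6 to 10 when 1 library was left out; the other alternatives gave 11 to 16. All 6 rows called with the block were among the 16. The other 5 tested members passed under none of the 18 alternatives. When 1 library was left out, Cdkn1a ranged from -0.41 to 0.0087, Cdkn1b from -0.12 to 0.0015, Cdkn2c from -0.069 to 0.45 and Cdkn2d from -0.068 to 0.21, each crossing 0, and Cdkn1c from 0.0061 to 0.38. Summing rows per symbol changed nothing, since each member has 1 row. The causes of these changes were not tested, apart from the fewer libraries or other rows that each alternative has by construction. The number of fragments is unknown, which limits what can be said of Cdkn2a and of Cdkn2b in the mutant.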

Other observations

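Cdkn1a, the member of highest level, was highest in pair A in both groups, while pairs B and C stood in opposite orders in the groups. The 5 rows most like it by Pearson r over the 6 libraries, among the 8838 other rows whose mean reached 5 FPKM, were Ap1s2 (r = 0.995), Degs2 (0.987), Snx4 (0.984), Elovl5 (0.981) and Chm (0.980). Elovl5, a fatty acid elongase, stood between 110 and 155 FPKM in mutant and between 117 and 154 FPKM in control libraries. Degs2, an enzyme of sphingolipid synthesis, stood between 11.1 and 14.8 FPKM in mutant and between 11.7 and 16.5 FPKM in control libraries. The mutant and control ranges of these 5 rows overlapped, and the correlations are descriptions of 6 libraries.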
